A study of Drosophila melanogaster with 36 samples.

Results

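The comparison described here set unmodified (WT) Drosophila melanogaster S2R+ cells that had recovered from arsenite against WT cells taken at the end of the arsenite exposure. It took the 3 poly(A) RNA libraries titled as recovery and the 3 titled as stress, 6 of the 36 libraries of the series, chosen by their titles alone. S2R+ is an adherent variant of the S2 line, an established culture of embryonic origin with properties of blood cells. The recovery cells had received 0.5 mM sodium arsenite for 3 h, had then been spun down and washed, and had stood in fresh medium for 3 h more. The stress cells were harvested after the same 3 h in 0.5 mM arsenite, and the WT control cells, 3 libraries whose levels are given beside the others, had received none. Mock RNAi and Rin RNAi cells, which carried RNA interference in addition (the Rin set being directed against rin, which encodes the G3BP protein of flies), gave 3 recovery and 3 stress libraries each under the same exposure. The comparison asks which transcripts changed between the end of the exposure and 3 h after its removal. The recovery cells were older in culture than the stress cells and had been washed and refed, so removal of arsenite, washing, new medium and time cannot be told apart. The labels do not say that the replicates were separate cultures, so the p-values measure only the spread between these libraries, which may be technical.

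Arsenite reacts with the thiol groups of proteins, so that cells under it accumulate misfolded and oxidised proteins. Such cells activate heat shock factor, which drives chaperone genes, and phosphorylate the initiation factor eIF2-alpha, which stalls most translation and sends stalled messenger RNA into stress granules. After the poison is withdrawn, granules dissolve and translation resumes, and growth, the cell cycle and the chaperone programme are reset over the following hours.

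Reads counted to genes numbered 7738642 to 8940613 in the recovery libraries, 6641504 to 7968059 in the stress libraries and 6121664 to 7436655 in the control libraries. Levels are given as CPM, the count of a gene relative to the library total after TMM scaling, a procedure that assumes most genes to be unchanged. The spread between replicates was low, with a biological coefficient of variation of 2.85% in the fit of the 9 WT libraries. No replicate pair was a copy of another, since the chi-square statistic of any replicate pair, divided by its degrees of freedom, was 1.21 to 2.61. Reads with several alignments made up 5.11% to 5.24% of reads in recovery, against 3.89% to 4.04% in stress, and were not counted to any gene. Of 15 markers of blood-cell-like cells, 12 had enough counts to test. The peroxidasin gene Pxn had 2946 CPM in recovery, against 3144 CPM in stress and the GATA factor gene srp had 401 CPM in recovery, against 369 CPM in stress, while the phagocytic receptor gene NimC1 had 2 counts over the 3 recovery libraries and 1 count over the 3 stress libraries.

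A total of 8123 of 17137 listed genes had counts high enough to be tested, and 2152 of them (26.5%) differed between recovery and stress at an adjusted p under 0.05 (edgeR quasi-likelihood test, Benjamini-Hochberg adjustment over all genes tested, two-sided). Transcripts of 1475 genes (18.2% of those tested) were higher in recovery and those of 677 (8.33%) were lower. Counts of called genes in the lists below are to be read against these shares. The lists are not separate, since genes such as Dredd, Thor, scyl and cher belong to several and are counted in each. The changes were unequal in size. At least 2-fold higher in recovery were 461 genes (5.68%), whereas 2 genes (0.0246%) were at least 2-fold lower. The median log2 fold change was 0.52 among the higher genes and -0.20 among the lower ones. Scaled by total library size in place of TMM, which lowered the log2 fold change of the median gene by 0.076, 1184 genes were higher and 2162 lower, so the split between the directions rested on the scaling, and each log2 fold change reads as a change against the bulk of genes. The lower calls also varied with the tool and with 1 library, numbering 255 by DESeq2, which was run without the count filter, and 417 without recovery replicate 2.

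The genes that were at least 2-fold higher in recovery were mostly weakly transcribed. Their median level was 5.02 CPM in recovery, 1.03 CPM in stress and 0.448 CPM in control. Among genes with a mean under 10 CPM over the 6 libraries, 463 of 1816 were higher and 34 lower, and 344 were at least 2-fold higher. Of the 461 genes, 226 had a mean under 1 CPM in stress. Genes near 0 in stress passed the count filter through their recovery counts, so the filter itself favours rises among weak genes. Of the 2036 genes between 100 and 1000 CPM, 519 were higher and 210 lower, with 38 at least 2-fold higher. At 1000 CPM and above, 44 of 152 genes were higher and 11 lower. The 461 genes held 2.78%, 2.89% and 2.90% of the scaled counts in the recovery libraries, 0.869%, 0.852% and 0.842% in the stress libraries and 0.419%, 0.428% and 0.433% in the control libraries. The plot of fold change against level shows this shape, with a wide upper fan at low levels and a narrow lower edge at all levels.

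**Figure D1:**
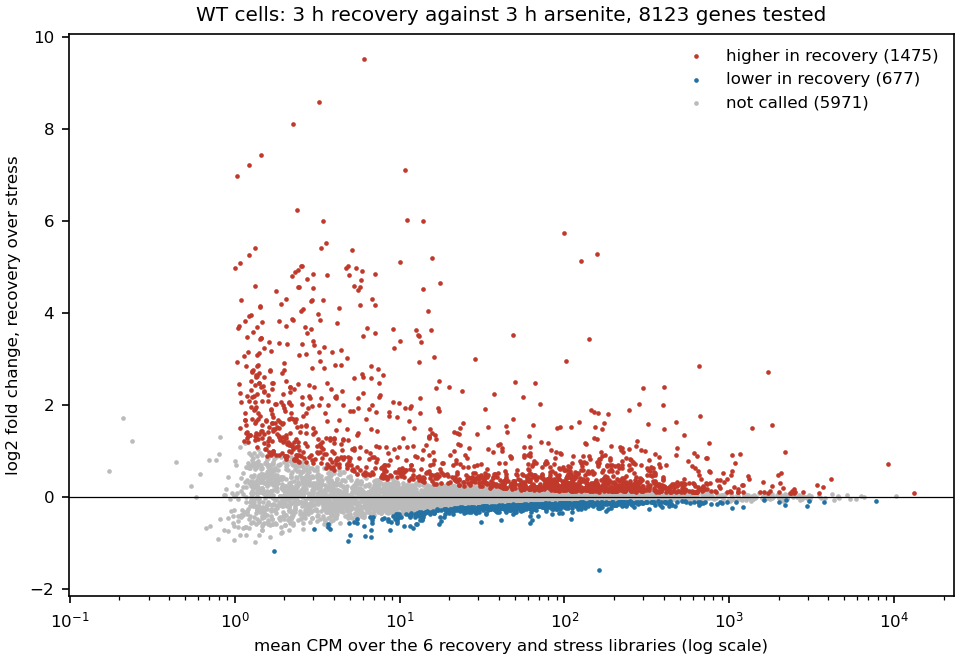
Log2 fold change of recovery over stress (vertical axis) against the mean CPM over the 6 recovery and stress libraries (horizontal axis, log scale) for the 8123 genes tested in WT cells, with 1475 higher, 677 lower and 5971 genes not called as coloured points. The highest point is CG15005, whose fitted value depends on its 0 counts in stress, and of the 677 genes called lower all but RNaseMRP:RNA at -1.60 and lncRNA:CR45362 at -1.18 lie above -1.

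Among genes of at least 10 CPM in recovery or stress, with no overlap between the groups, the largest rises were of genes that had been close to silent. CG15005, a gene with no role stated here, had 11.1, 12.1 and 13.5 CPM in recovery, against 0, 0 and 0 CPM in stress and 0, 0.127 and 0 CPM in control. Its 287 counts in the 3 recovery libraries against 0 in the 3 stress libraries make it at least 88.5-fold higher, on a floor of 3 counts over the group. The immunoglobulin-domain receptor gene dpr4 had 503 counts in recovery and 3 in stress, a ratio of 155 (95% interval of counting error 52.8 to 755). CG31445 had 22.8, 24.7 and 17.9 CPM in recovery, against 0.136, 0.253 and 0.603 CPM in stress, and CG1632 had 26.7, 30.4 and 25.4 CPM in recovery, against 0.409, 0.127 and 0.754 CPM in stress, with SE of 0.60 and 0.50 on log2 fold changes of 6.02 and 6.01. In all 4 genes, named on condition that the groups did not overlap, the control libraries held at most 0.127 CPM.

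Genes for specialised tissues were among these rises. Gr63a, which encodes a subunit of the carbon dioxide receptor of antennal neurons, had 183, 209 and 191 CPM in recovery, against 3.81, 4.05 and 2.87 CPM in stress and 0.153, 0.127 and 0.127 CPM in control (log2 fold change 5.74, SE 0.17, adjusted p 6.06e-37). CCHa2, a peptide hormone gene, had 11.6, 8.45 and 10.0 CPM in recovery, against 0.136, 0.38 and 0.151 CPM in stress (log2 fold change 5.36 (SE 0.67)). Rdl, which encodes a GABA-gated chloride channel, had 11.2, 13.4 and 9.76 CPM in recovery, against 0.545, 0.253 and 0.302 CPM in stress (log2 fold change 4.91 (SE 0.53)), and Dhc93AB, an axonemal dynein heavy chain, had 18.3, 19.7 and 20.6 CPM in recovery, against 0.409, 0.38 and 0.905 CPM in stress (log2 fold change 5.11 (SE 0.45)). None of these 4 genes exceeded 0.763 CPM in a control library. SP1029, an aminopeptidase gene, had 248, 243 and 249.7 CPM in recovery, against 6.27, 8.87 and 5.73 CPM in stress and 0.458, 0.382 and 0.759 CPM in control (log2 fold change 5.13, SE 0.12, adjusted p 2.57e-38). CG6785, of no stated function here, had 288, 325 and 314 CPM in recovery, against 8.17, 6.71 and 9.05 CPM in stress (log2 fold change 5.28, SE 0.12, adjusted p 7.1e-39). OSCP1 rose by 5.19 (SE 0.32) on the log2 scale and Tim17a1, named for a translocase subunit of the mitochondrial inner membrane, by 4.98 (SE 0.54). That every recovery library of these 8 genes lay above every stress library was a condition for naming them. The groups did not overlap in 458 of the 461 genes that were at least 2-fold higher. The same held for 1414 of all 1475 higher genes and for 607 of the 677 lower genes. A call by the test favours this outcome, so it is not particular to the 461 genes.

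Several of these genes lie next to another gene whose transcript rose, with that neighbour's 3′ end pointing at them. On the dm6 assembly (Ensembl annotation), Ccz1 at chr3L:3897444-3899156 begins 103 bases past the 3′ end of the ubiquitin gene Ubi-p63E in the direction of that gene's transcription, and Gr63a at chr3L:3894999-3896603 lies 841 bases past the 3′ end of Ccz1 on the same strand as Ccz1. SP1029 at chr3R:29244961-29250451 lies 1375 bases past the 3′ end of stg, and CG31445 at chr3R:29240580-29244827 lies 134 bases past the 3′ end of SP1029. CG6785 lies 143 bases past CG6770, which had 486 ± 22.9 CPM in recovery, against 161 ± 2.52 CPM in stress (SD, n = 3 each). Tim17a1 lies 96 bases from the facing 3′ end of GstD10 (log2 fold change 2.37), and CG4461 125 bases from that of Hsp26. CG15005 and the cuticle genes Cpr64Aa, Cpr64Ab and Cpr64Ac lie in a row on the minus strand at chr3L:4200825-4204339, chr3L:4207838-4209178, chr3L:4210880-4211540 and chr3L:4211964-4212915, within the span of CG43367 on the other strand, which did not pass the test (log2 fold change -0.13, adjusted p 0.0783). CG6770, GstD10 and the partners of overlaps named here were picked after their values were seen. The library kit did not mark strand, so reads from a transcript that ran on past its gene, reads from an antisense transcript and reads from the gene itself cannot be told apart.

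Over all genes the same arrangement was more common among the higher genes. A higher gene's 3′ end faced the gene from within 5 kb for 200 of the 460 genes that were at least 2-fold higher and could be placed (43.5%), for 25.5% of the genes higher by less than 2-fold, for 13.8% of the lower genes and for 17.0% of the genes not called. Within 1 kb the shares were 23.7%, 10.3%, 4.76% and 7.06%. Among the 55 genes that were at least 2-fold higher and averaged at least 50 CPM, 41.8% had such a neighbour within 5 kb. No test was made of these shares, since neighbouring genes are not independent, and the part of read-through in any rise was not tested.

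Exonic length differed between the groups of genes as well. Of 394 tested genes with at least 8 kb of exonic sequence, 47.7% were higher and 4.06% lower in recovery, whereas of 1178 genes under 1 kb 8.66% were higher and 12.1% lower. The shares higher were 11.2% from 1 to 2 kb, 18.1% from 2 to 4 kb and 32.4% from 4 to 8 kb. The median log2 fold change was -0.078 under 1 kb and 0.16 at 8 kb and above. Genes without an intron made up 13.5% of those at least 2-fold higher, 4.94% of those higher by less than 2-fold and 10.9% of the lower ones, against 9.79% of all tested genes.

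**Figure D2:**
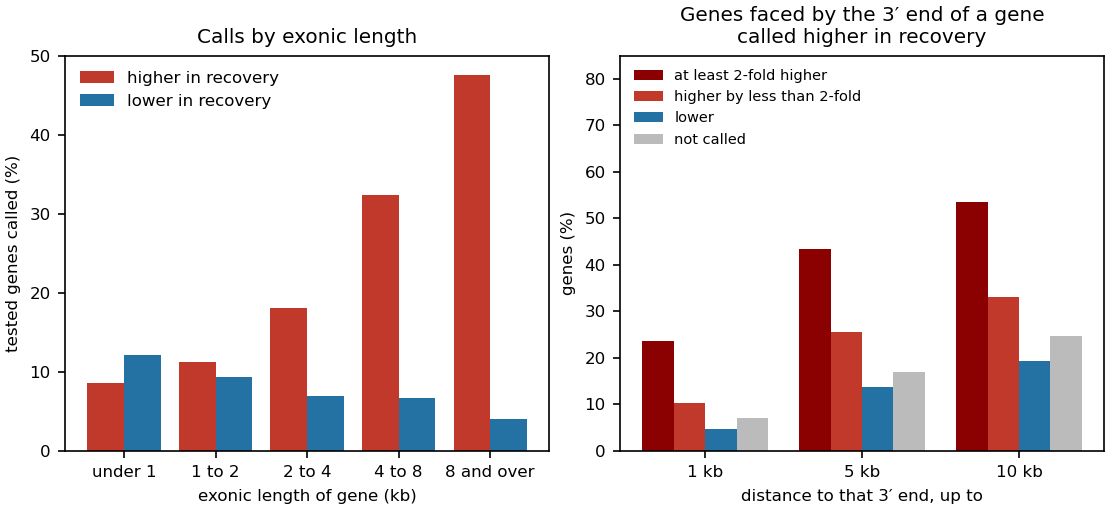
Left, share of tested genes called higher and lower in recovery (vertical axis, percent) by exonic length (horizontal axis, kb). Right, share of genes in 4 classes of change (vertical axis, percent) that the 3′ end of a gene called higher in recovery faced from within 1, 5 or 10 kb (horizontal axis); the share higher climbs to 47.7% at 8 kb and above, and the share with such a neighbour within 5 kb is 43.5% for genes at least 2-fold higher, against 17.0% for genes not called.

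Among transcripts averaging at least 50 CPM, the highest rises took in genes of the chaperone system, Rev1 and scyl, beside genes of other roles or of none stated here. The largest next to Gr63a, CG6785 and SP1029 was of stv (starvin), a BAG-domain co-chaperone that acts as nucleotide exchange factor of Hsp70. It had 244, 256 and 276 CPM in recovery, against 23, 24.3 and 24.7 CPM in stress and 3.97, 1.91 and 3.8 CPM in control (log2 fold change 3.43, SE 0.077, adjusted p 1.49e-34). Rev1, a DNA polymerase that bypasses damaged bases, had 1138, 1169.5 and 1160.3 CPM in recovery, against 156, 158 and 166 CPM in stress and 215, 207 and 219.7 CPM in control (log2 fold change 2.85, SE 0.038, adjusted p 1.5e-39), so its stress level lay under its control level and its recovery level far above both. Ccz1, part of an exchange factor of late endosomes, had 171, 185 and 189 CPM in recovery, against 23.6, 24.4 and 22.3 CPM in stress (log2 fold change 2.95 (SE 0.072)), with a control level of 28.9 CPM. The PDZ-domain gene a (arc) rose by 2.49 (SE 0.088), the small GTPase gene Rgk1 by 2.48 (SE 0.079) and CG14961 by 2.37 (SE 0.045) on the log2 scale. In each of these genes the 3 libraries of either group lay within a narrow band, as the plot of each library shows. That the bands did not overlap was a condition for naming these genes. The genes a, Rgk1 and CG14961 each overlap another gene on the opposite strand (CG3045, fest and CG14969 among them), whose reads cannot be separated by strand, and of these fest rose too, by 0.80.

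**Figure D3:**
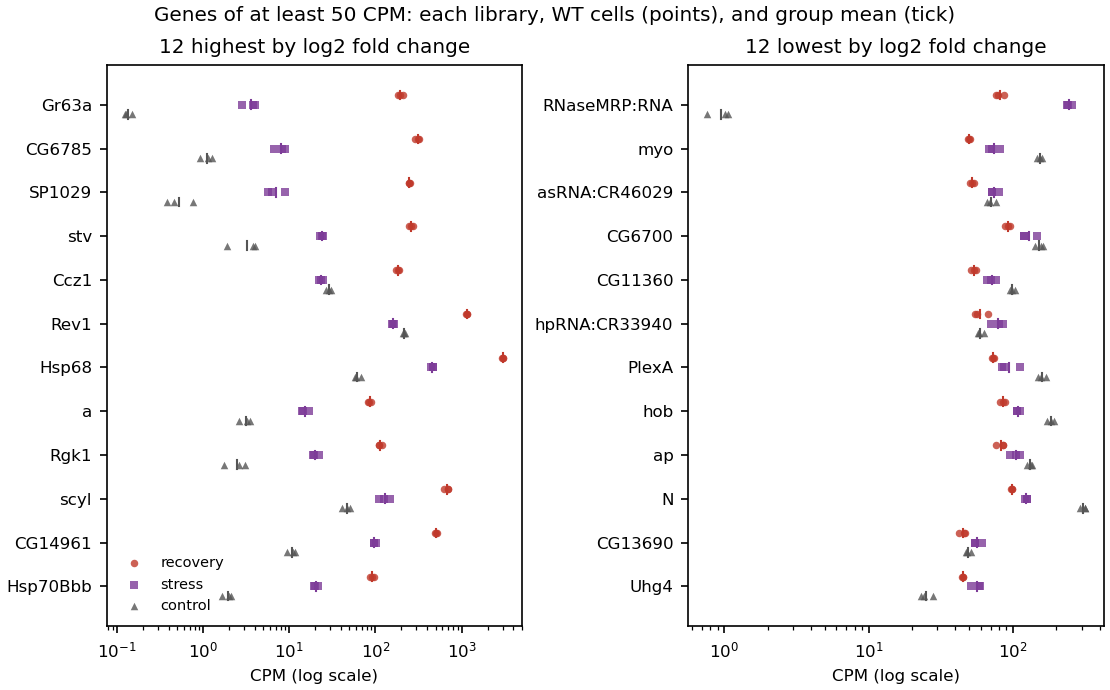
CPM (horizontal axes, log scale) of the 12 highest (left) and 12 lowest (right) genes by log2 fold change among those averaging at least 50 CPM, in each of 3 recovery, 3 stress and 3 control libraries of WT cells, with a tick at each group mean. Recovery points of stv lie at 244 to 276 CPM and of Rev1 at 1138 to 1169.5 CPM, whereas RNaseMRP:RNA has 76.9 to 86.7 CPM in recovery, against 237 to 257 CPM in stress.

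The inducible chaperones stood higher in recovery than at the end of the stress. Hsp70 proteins refold or hold misfolded proteins, small heat-shock proteins hold them in a refoldable state, and both families are driven by heat shock factor. All 5 tested members of the Hsp70 and Hsp68 list and all 7 tested small heat-shock genes were higher in recovery, against 18.2% of all tested genes, with median log2 fold changes of 2.17 and 1.50, against -0.013 over all tested genes. Hsp68 had 2908, 3063 and 3052 CPM in recovery, against 461, 461 and 446 CPM in stress and 67.8, 57.9 and 59.1 CPM in control (log2 fold change 2.72, SE 0.035, adjusted p 1.5e-39). Of the Hsp70 copies, Hsp70Ba had 49.7, 54.1 and 50.3 CPM in recovery, against 7.63, 5.95 and 5.58 CPM in stress and rose by 3.00 (SE 0.13), Hsp70Bbb had 87, 91.6 and 96.3 CPM in recovery, against 19.6, 19.8 and 21.9 CPM in stress and rose by 2.17 (SE 0.077), Hsp70Bc rose by 1.53 (SE 0.048) and Hsp70Bb by 1.22 (SE 0.049) on the log2 scale. The recovery and stress libraries of each copy did not overlap. These copies are nearly identical, so the split of reads between them is uncertain, and the reads that matched several places, a larger share in recovery than in stress, were lost to all of them. Hsp70Aa and Hsp70Ab, with 3 and 4 counts in the recovery libraries, were too low to test.

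Small heat-shock transcripts followed the same order of groups. Hsp26 had 2001, 2019 and 2113 CPM in recovery, against 695, 751 and 729 CPM in stress and 35.1, 32.8 and 35.9 CPM in control (log2 fold change 1.50, SE 0.034, adjusted p 1.58e-31). Hsp27 had 696, 728 and 719 CPM in recovery, against 231, 248 and 217 CPM in stress and Hsp23 had 1047, 1049.8 and 1040.0 CPM in recovery, against 463, 486 and 441 CPM in stress, with log2 fold changes of 1.62 (SE 0.041) and 1.17 (SE 0.036). CG4461, the weak gene beside Hsp26, rose by 4.72 (SE 0.49), Hsp67Bc by 2.20 (SE 0.21), Hsp67Ba by 1.11 (SE 0.19) and CG14207 by 0.98 (SE 0.12). For Hsp22 the files list 0 in all 9 WT libraries, so it was not tested. Whether annotation that overlaps it left its reads uncounted was not tested either, and the 0 is not read as absence of the transcript.

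Co-chaperones and constitutive chaperones were more mixed. In the list of other cytosolic chaperones, which holds stv with its log2 fold change of 3.43, 8 of 19 tested members were higher and 1 lower, with a median of 0.060 that turned to -0.017 under scaling by total library size. DnaJ-1, the Hsp40 partner of inducible Hsp70, had 2611, 2729 and 2762 CPM in recovery, against 912, 912 and 935 CPM in stress and 227, 231 and 242 CPM in control (log2 fold change 1.55, SE 0.032, adjusted p 4.59e-33). The gene of heat shock factor itself, Hsf, had 322, 333 and 325 CPM in recovery, against 203, 193 and 197 CPM in stress and 98.5, 96.7 and 89.7 CPM in control (log2 fold change 0.73 (SE 0.04)), and Hsp83, the fly Hsp90, had 11501 ± 219 CPM in recovery, against 6983 ± 71.5 CPM in stress (SD, n = 3 each, log2 fold change 0.72 (SE 0.026)). Hsc70-4, the constitutive cytosolic Hsp70, rose by 0.39 (SE 0.027), while the Hsp40 gene mrj fell by 0.16. In the endoplasmic reticulum 3 of 16 chaperone genes were higher and 1 lower, near the share over all genes. Those higher were Hsc70-3 (BiP, the Hsp70 of that compartment) at 0.48 (SE 0.03), the Hsp90 homologue Gp93 at 0.46 (SE 0.032) and Pdi, a protein disulfide isomerase, at 0.16 (SE 0.031). Of 9 mitochondrial chaperones and proteases, only Hsc70-5 passed the test, at 0.20 (SE 0.033).

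**Figure D4:**
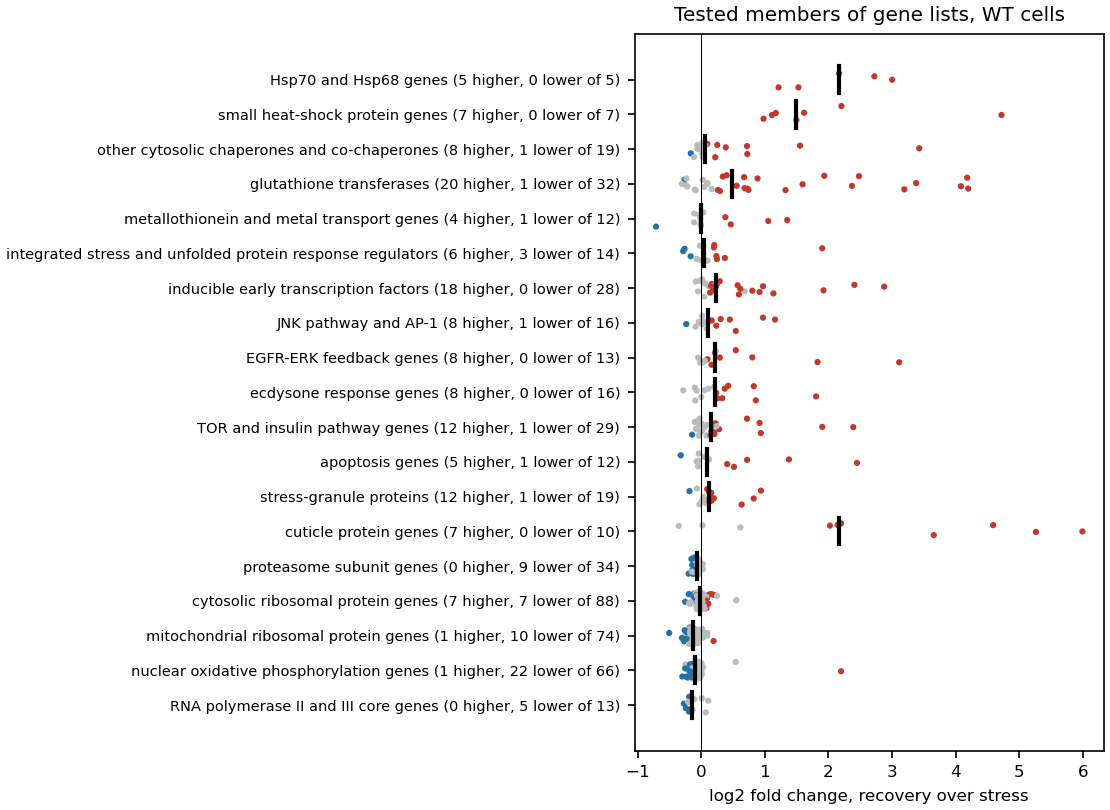
Log2 fold change of recovery over stress (horizontal axis) of each tested member of 19 gene lists in WT cells, red where higher, blue where lower and grey where not called, with a black tick at the list's median and the counts beside its name. Hsp70, small heat-shock and cuticle genes have medians of 2.17, 1.50 and 2.17, and no member of the proteasome list is called higher.

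The integrated stress response, in which kinases of eIF2-alpha raise the transcription factor ATF4 (crc in flies), was mixed. Of 14 tested genes listed for this and the unfolded protein response, REPTOR and REPTOR-BP among them, 6 were higher (42.9%) and 3 lower (21.4%) in recovery. Over all tested genes the shares were 18.2% and 8.33%. Scaling by total library size made the list 6 higher and 6 lower. Thor, the fly 4E-BP that blocks cap-dependent initiation, had 50.5, 54.7 and 51.4 CPM in recovery, against 13.6, 13.8 and 14.5 CPM in stress and 2.14, 2.93 and 1.77 CPM in control (log2 fold change 1.90, SE 0.093, adjusted p 1.29e-21). The others that rose did so by less than 0.4 on the log2 scale, namely trbl at 0.37, Xrp1 at 0.25, the endoplasmic reticulum sensors Ire1 at 0.24 and PEK at 0.21, and REPTOR at 0.20. Gcn2, the kinase that senses uncharged tRNA, fell by 0.16, Atf6 by 0.26 and REPTOR-BP by 0.28. Neither crc (log2 fold change -0.072 (adjusted p 0.224)) nor Xbp1 (-0.013 (adjusted p 0.814)) nor PPP1R15, the phosphatase subunit that reverses eIF2-alpha phosphorylation (0.10 (adjusted p 0.11)), passed the test. Among 12 amino-acid synthesis and one-carbon genes, 4 were higher and none of those tested lower. The phosphoserine phosphatase gene aay had 119, 128 and 128 CPM in recovery, against 68.9, 63.3 and 63.9 CPM in stress (log2 fold change 0.93 (SE 0.052)), the folate enzyme Nmdmc rose by 0.65 (SE 0.048), the asparagine synthetase AsnS by 0.61 (SE 0.04) and the amino-acid transporter mnd by 0.33 (SE 0.047). AsnS overlaps chb on the same strand, whose own log2 fold change was 0.99, and Nmdmc overlaps Rel, at 0.49.

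Genes for metal handling bind or move metal ions or control those that do. Of 12 tested metallothionein and metal transport genes, 4 were higher (33.3%, against 18.2% of all tested genes) and 1 lower. Mrp4, an ABC transporter of conjugated organic anions, had 730.1, 771 and 779 CPM in recovery, against 300.1, 294 and 299 CPM in stress and 106, 113 and 116 CPM in control (log2 fold change 1.35, SE 0.037, adjusted p 8.46e-29), and MRP, a related ABC transporter, rose by 0.38 (SE 0.036) on the log2 scale. ZnT77C, a zinc transporter, rose by 1.05 (SE 0.094), and MTF-1, the transcription factor that drives metallothioneins under metal load, by 0.47 (SE 0.051). MtnA, the metallothionein gene with enough counts to test, had 28.8, 31.4 and 28.2 CPM in recovery, against 31.2, 36.2 and 27.3 CPM in stress (log2 fold change -0.11 (adjusted p 0.385)), and the groups overlapped. Zip89B, named as a zinc importer, fell by 0.71 on the log2 scale at a low level, with 1.66, 2.14 and 3.16 CPM in recovery, against 4.63, 3.8 and 2.71 CPM in stress, and its groups overlapped.

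Glutathione transferases rose more often than tested genes in general. Among 32 tested glutathione transferases, which couple glutathione to reactive compounds, 20 were higher (62.5%) and 1 lower, with a median of 0.48. The largest rises were of genes near silence in stress. GstE4 had 14.1, 13.7 and 12.6 CPM in recovery, against 0.545, 0.76 and 0.905 CPM in stress (log2 fold change 4.18 (SE 0.36)), GstD6 had 28, 22.3 and 24 CPM in recovery, against 1.23, 2.79 and 3.17 CPM in stress (3.38 (SE 0.24)), and GstD11 and GstD8 rose by 4.20 (SE 0.77) and 4.08 (SE 0.62). Of the members with the highest CPM, GstO3 rose by 0.26 (SE 0.041) and GstE6, with a log2 fold change of 0.048 (adjusted p 0.351), did not pass the test, while GstE11 fell by 0.26. These genes lie in tandem clusters of related sequence, where the 3′ end of GstE3 faces GstE4 from 1781 bases, that of GstD7 faces GstD8 from 753 bases and that of GstD5 faces GstD6 from 556 bases, so the split of reads between neighbours is uncertain.

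In the oxidant defence list, 11 of 22 members were higher (50.0%, against 18.2% of all tested genes) and 2 lower. The autophagy adaptor ref(2)P, the fly p62, had 639, 663 and 655 CPM in recovery, against 322, 301 and 316 CPM in stress and 229, 232 and 217 CPM in control (log2 fold change 1.06, SE 0.037, adjusted p 3.54e-25). The pentose phosphate enzyme Pgd rose by 0.53 (SE 0.037) and the thioredoxin reductase Trxr-1 by 0.29 (SE 0.035), whereas the mitochondrial superoxide dismutase Sod2 fell by 0.17. The peroxiredoxin genes Prx2540-1 and Prx2540-2, near-identical copies whose reads are split with uncertainty, rose by 0.80 and 0.55. Their means over the 6 recovery and stress libraries were 8.75 and 15.2 CPM. The control libraries held 94.6, 87.9 and 78.6 CPM and 159, 149 and 148 CPM, so both genes stayed far below control. The transcription factor gene cnc, the fly Nrf2, rose by 0.42 (SE 0.043). Of 32 cytochrome P450 genes 6 were higher and 1 lower, close to the share over all genes. Among the higher were Cyp4e1 at 1.88 (SE 0.13), Cyp4e2 at 0.71 (SE 0.063) and Cyp318a1, whose 49 counts in recovery against 0 in stress make it at least 15.1-fold higher on the same floor.

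Transcription factor genes of early response rose broadly. In the list of inducible early transcription factors, 18 of 28 tested members were higher (64.3%) and none lower, with a median of 0.24. The AP-1 subunit gene kay, the fly Fos, had 2785, 2935 and 2929.6 CPM in recovery, against 1527, 1465 and 1417 CPM in stress and 716, 731 and 720.5 CPM in control (log2 fold change 0.97, SE 0.031, adjusted p 3.19e-26), while its partner Jra, the fly Jun, had 193, 180.4 and 193 CPM in recovery, against 176, 194 and 189 CPM in stress (log2 fold change 0.016 (adjusted p 0.832)), with overlapping groups. Weakly expressed members rose most, with CG14186 at 2.88 (SE 0.58), the nuclear receptor gene Hr38 at 2.41 (SE 0.52), the snail-family gene esg at 1.92 (SE 0.22) and sug at 1.14 (SE 0.11). In the JNK list 8 of 16 were higher (50.0%, against 18.2% of all tested genes) and 1 lower. Gadd45, an activator of stress kinase signalling, had 179, 189 and 187 CPM in recovery, against 85.5, 77.8 and 85.5 CPM in stress (log2 fold change 1.16 (SE 0.049)), the phosphatase Mkp3 rose by 0.54 (SE 0.041) and the metalloproteinase Mmp1 by 0.45 (SE 0.058). The filamin gene cher fell by 0.23, and egr, the fly tumour necrosis factor, had a log2 fold change of -0.0056 (adjusted p 0.938).

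Several Notch targets and genes of EGF receptor signalling were also higher in recovery. The E(spl) complex holds direct Notch targets, and 3 of its 4 tested members were higher, with E(spl)m3-HLH at 63.6, 66.8 and 65 CPM in recovery, against 24.2, 22.4 and 27.6 CPM in stress (log2 fold change 1.40 (SE 0.075)), E(spl)mbeta-HLH at 228, 207 and 223 CPM in recovery, against 110.3, 124 and 122 CPM in stress (0.88 (SE 0.046)) and E(spl)m7-HLH rising by 1.45 (SE 0.25). E(spl)m6-BFM had a log2 fold change of 0.43 (adjusted p 0.21). Of 13 genes of the EGF receptor pathway and its feedback, 8 were higher and 0 lower in edgeR's test, and 5 were higher under scaling by total library size. The protease gene rho, which releases EGF receptor ligands, had 242, 246 and 259 CPM in recovery, against 71.4, 66.4 and 72.7 CPM in stress and 9.77, 11.6 and 8.48 CPM in control (log2 fold change 1.83, SE 0.051, adjusted p 2.82e-29). The ETS-domain genes edl and aop rose by 0.80 (SE 0.04) and 0.29 (SE 0.034), while pnt, the activator that the pathway drives, had 0.056 (adjusted p 0.278). The receptor gene Egfr itself rose by 3.11 (SE 0.42), at 4.75, 4.92 and 4.95 CPM in recovery, against 0.681, 0.38 and 0.603 CPM in stress.

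Of 16 ecdysone response genes, which the moulting hormone induces in tissues, 8 were higher (50.0%, against 18.2% of all tested genes) and 0 lower. Eip71CD, a methionine sulfoxide reductase that repairs oxidised methionine, had 291, 290.2 and 279 CPM in recovery, against 79.7, 84.4 and 82 CPM in stress and 58.5, 63.1 and 57.2 CPM in control (log2 fold change 1.81, SE 0.046, adjusted p 1.69e-30). The nuclear receptor gene Eip75B had 320.0, 312 and 330.3 CPM in recovery, against 201, 173 and 168 CPM in stress (log2 fold change 0.83 (SE 0.046)), Hr4 rose by 0.86 (SE 0.19) and br by 0.37 (SE 0.044). Among 16 JAK-STAT genes 6 were higher and 0 lower. The thioester protein gene Tep2 had 220.0, 223 and 225 CPM in recovery, against 118, 108 and 114 CPM in stress (log2 fold change 0.98 (SE 0.045)), the cytokine gene upd2 rose by 0.68 (SE 0.097) and the repressor ken by 0.52 (SE 0.049), while Stat92E, the pathway's transcription factor, had -0.059 (adjusted p 0.257). In the NF-kB list 6 of 21 were higher and 2 lower, among them the NF-kB gene Rel at 0.49 (SE 0.037), its inhibitor relative cact at 0.58 (SE 0.041), the feedback inhibitor pirk at 0.38 (SE 0.059) and the caspase Dredd, which fell by 0.32.

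Inhibitors of growth signalling rose together with a growth driver. The TOR and insulin list had 12 of 29 members higher (41.4%, against 18.2% of all tested genes) and 1 lower. The gene scyl, a fly relative of REDD1 that restrains TOR, had 632, 689.6 and 698 CPM in recovery, against 148, 126 and 109.8 CPM in stress and 41.1, 51.3 and 47.1 CPM in control (log2 fold change 2.39, SE 0.058, adjusted p 7.39e-31), and its relative chrb had 71.8, 78.2 and 75.2 CPM in recovery, against 53.1, 43.7 and 39.4 CPM in stress (log2 fold change 0.72 (SE 0.07)). ImpL2, which binds and blocks insulin-like peptides, had 1484, 1553 and 1530.3 CPM in recovery, against 802, 795 and 788 CPM in stress and 326, 326 and 324 CPM in control (log2 fold change 0.94 (SE 0.031)). Myc, a driver of growth and ribosome synthesis, had 597, 649 and 634 CPM in recovery, against 396, 325 and 273 CPM in stress and 274, 284 and 293 CPM in control (log2 fold change 0.92, SE 0.06, adjusted p 3.91e-16), and Tor itself fell by 0.14.

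Of 23 glycolysis and hypoxia genes 8 were higher and 2 lower, with the trehalose transporter Tret1-1 at 0.99 (SE 0.073) and the trehalase Treh at 0.75 (SE 0.047), whereas the glycolytic enzymes Gapdh1 and Pgk fell by 0.11 and 0.10. The median of that list was 0.043, and -0.033 under scaling by total library size. In the fatty acid list 6 of 23 were higher and 3 lower. The triglyceride lipase gene bmm had 250.5, 269 and 263 CPM in recovery, against 93.7, 81.3 and 82.3 CPM in stress and 15, 15.3 and 16.5 CPM in control (log2 fold change 1.60, SE 0.049, adjusted p 1.08e-27). The phosphatidate phosphatase Lpin rose by 0.48 (SE 0.045), the fatty acid synthase FASN1 by 0.25 (SE 0.033) and hll, an acyl-CoA synthetase gene, by 2.27 (SE 0.39), while the protease S1P, which activates SREBP, fell by 0.28 and SREBP itself had -0.02 (adjusted p 0.694).

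Among death genes the caspase activators rpr and hid rose. Of 12 apoptosis genes 5 were higher and 1 lower. The gene rpr, whose protein blocks the caspase inhibitor Diap1, had 28.8, 33.9 and 35.2 CPM in recovery, against 13.9, 14.2 and 8.9 CPM in stress and 4.88, 5.85 and 5.57 CPM in control (log2 fold change 1.38, SE 0.12, adjusted p 2.28e-13), and hid, of the same action, had 65.2, 72 and 68.8 CPM in recovery, against 56.9, 50.7 and 47.2 CPM in stress (log2 fold change 0.41 (SE 0.063)). The transcription factor p53 rose by 0.52 (SE 0.082), the Bcl-2 family gene Buffy by 2.45 (SE 0.63) and Corp, a p53 feedback gene, by 0.72 (SE 0.20). Corp overlaps CG1632 on the opposite strand, which rose by far more. The initiator caspase Dronc (-0.042 (adjusted p 0.699)) and Diap1 (-0.048 (adjusted p 0.425)) did not pass the test. In the DNA damage list, 6 of 28 were higher and 1 lower, near the background. Claspin, an adaptor of the replication checkpoint, had 158, 160.1 and 171 CPM in recovery, against 59.9, 59.5 and 51.3 CPM in stress and 138, 153 and 151 CPM in control (log2 fold change 1.51, SE 0.058, adjusted p 2.13e-24), so its recovery and control libraries lay near each other and its stress libraries below both. The stress libraries of the repair gene rad50 also lay below both other groups, but its recovery libraries lay below its control libraries. It had 117, 109 and 109.9 CPM in recovery, against 75.9, 66.8 and 75.5 CPM in stress and 149, 159 and 163 CPM in control (log2 fold change 0.63 (SE 0.055)), while its partner mre11 fell by 0.19.

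Cell cycle genes divided. Of 40 cyclins and mitotic regulators 4 were higher and 7 lower. The phosphatase gene stg, the fly Cdc25 that triggers mitosis, had 1001, 1031 and 1049 CPM in recovery, against 308, 297 and 300.1 CPM in stress and 136, 144 and 142 CPM in control (log2 fold change 1.77, SE 0.035, adjusted p 2.34e-33), E2f1 had 359.8, 353 and 366 CPM in recovery, against 224, 223 and 220.0 CPM in stress (log2 fold change 0.69 (SE 0.038)) and the mitotic kinase aurA rose by 0.54 (SE 0.059). Cdk1 fell by 0.18 and its inhibitory kinase Myt1 by 0.25. In the replication list 2 of 39 were higher and 3 lower, with the origin recognition gene Orc1 at 182, 186 and 189 CPM in recovery, against 83.4, 84.1 and 85.2 CPM in stress (log2 fold change 1.14 (SE 0.047)), the ribonucleotide reductase RnrS at 0.12 (SE 0.037), DNApol-alpha60 falling by 0.26 and RfC3 by 0.30. Of 6 histone genes with enough poly(A) reads to test, 0 were higher and 2 lower, His2Av by 0.17 and His4r by 0.13. Canonical histone messages carry no poly(A) tail, so they are poorly captured by such libraries.

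Both polyubiquitin genes rose, and no proteasome subunit gene was called higher. In the list of ubiquitin and proteasome assembly genes 4 of 18 were higher (22.2%), against 18.2% of all tested genes, and 2 lower. The polyubiquitin genes Ubi-p5E and Ubi-p63E had 289, 294 and 306 CPM in recovery, against 143, 153 and 143 CPM in stress and 922, 941 and 975 CPM in recovery, against 511, 534 and 531 CPM in stress, with log2 fold changes of 1.02 (SE 0.042) and 0.85 (SE 0.035), and the shuttle receptor Ubqn rose by 0.32 (SE 0.039), while the ubiquitin ligase Ufd4 and the proteasome activator REG each fell by 0.12. Of 34 proteasome subunit genes 0 were higher and 9 lower (26.5%, against 8.33% of all tested genes). Prosbeta1 fell by 0.20, Rpn11 by 0.15, Rpn5 by 0.14 and Rpt6 by 0.11. DESeq2 called 2 of the 34 lower and scaling by total library size 27. In the autophagy list 6 of 26 were higher (23.1%, near the 18.2% of all tested genes) and 1 lower, with Atg18b at 94.5, 96.4 and 99.1 CPM in recovery, against 34.9, 32.2 and 31.7 CPM in stress (log2 fold change 1.55 (SE 0.063)), Atg17 at 0.44 (SE 0.053), Atg16 at 0.31 (SE 0.048) and Uvrag falling by 0.21. Of 19 lysosomal proton pump genes 3 were higher (15.8%) and 1 lower.

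Ribosomal and mitochondrial genes showed small shifts between recovery and stress, more often down than up in the mitochondrial lists. Of 88 cytosolic ribosomal protein genes 7 were higher and 7 lower with a median of -0.015, RpL3 having 3992 ± 7.3 CPM in recovery, against 3469 ± 61.3 CPM in stress and RpL38 951 ± 32.3 CPM in recovery, against 1132 ± 113 CPM in stress (SD, n = 3 each). Scaling by total library size made it 1 higher and 48 lower of the 88 cytosolic genes. RpL3 rose by 0.20 (SE 0.027) and RpL22 by 0.16 (SE 0.038), RpL5 fell by 0.10 and RpL38 by 0.25. The list of mitochondrial ribosomal proteins had 1 of 74 higher and 10 (13.5%) lower, with a median of -0.13. Its changes ran from mRpL39 at 0.20 (SE 0.065) to mRpS21, which fell by 0.50. Of 66 nuclear genes for oxidative phosphorylation, 1 was higher and 22 (33.3%, against 8.33% of all tested genes) were lower. COX5A fell by 0.25 and ATPsynbeta by 0.11. The higher one, ND-51L2, lies within Trpm on the same strand, whose own log2 fold change was 1.99, and had 7.01, 5.55 and 7.83 CPM in recovery, against 1.36, 1.39 and 1.66 CPM in stress. DESeq2 called 11 of the 66 lower and scaling by total library size 45. Of the mitochondrial ribosomal list DESeq2 called 3 lower and scaling by total library size 35.

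Factors that make proteins followed no common direction. Of 46 translation factors 8 were higher and 2 lower, including eIF5B, which joins the ribosomal subunits, at 398, 424 and 405 CPM in recovery, against 265, 266 and 255 CPM in stress and 393, 390.5 and 396 CPM in control (log2 fold change 0.64 (SE 0.038)). The elongation factor eEF1alpha1 rose by 0.088 (SE 0.025), eEF2 had 0.012 (adjusted p 0.781), and eIF6, which keeps the large subunit from joining, fell by 0.28. Of 36 aminoacyl-tRNA synthetases 1 was higher and 5 lower, namely CysRS at 0.21 (SE 0.045) against falls of 0.49 for the mitochondrial ValRS-m and 0.39 for AsnRS-m. In the ribosome biogenesis list 4 of 42 were higher and 7 lower, with Nop17l at 467, 489.8 and 502 CPM in recovery, against 271, 265 and 264 CPM in stress (log2 fold change 0.87 (SE 0.037)) and the RNA polymerase I factor Tif-IA falling by 0.16. Of 13 core subunits of RNA polymerases II and III, 0 were higher and 5 (38.5%) lower, such as RpIII128 by 0.24 and Rpb10 by 0.27. Over all tested genes 8.33% were lower. The largest subunit of RNA polymerase II, RpII215, had 0.0094 (adjusted p 0.908).

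RNA-binding proteins of stress granules were more often higher than other tested genes. Of 19 listed, 12 were higher (63.2%) and 1 lower, with a median of 0.13 and 5 higher and 3 lower under scaling by total library size. Imp, a binder of messenger RNA in transport granules, had 433, 497 and 468 CPM in recovery, against 292, 251 and 183 CPM in stress and 396, 412 and 411 CPM in control (log2 fold change 0.94, SE 0.072, adjusted p 3.7e-14). The splicing-linked gene ncm had 205, 212 and 204 CPM in recovery, against 123, 110.3 and 117 CPM in stress and 241, 253 and 248 CPM in control (log2 fold change 0.83 (SE 0.045)) and stau, which localises messenger RNA, had 123, 118 and 119 CPM in recovery, against 81.6, 76.6 and 73 CPM in stress (0.64 (SE 0.05)). In Imp and ncm the stress libraries lay below both other groups. The granule scaffold rin rose by 0.20 (SE 0.034), pAbp, which binds poly(A) tails, by 0.16 (SE 0.032), and AGO2 fell by 0.18. In the P-body and decay list 4 of 31 were higher and 4 lower, with the repressor pum at 0.34 (SE 0.045), tral at 0.21 (SE 0.039) and the decapping activator DCP1 falling by 0.33. Of 13 RNA interference genes 2 were higher and 2 lower, AGO1 at 0.25 (SE 0.049) and vig at 0.18 (SE 0.043) among the higher.

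For splicing, 8 of 34 factors were higher and 5 lower. Prp8, the core of the spliceosome, had 738, 741 and 727 CPM in recovery, against 473, 434 and 479.5 CPM in stress and 640.1, 664 and 679 CPM in control (log2 fold change 0.67, SE 0.037, adjusted p 1.19e-18), Sf3b2 rose by 0.26 (SE 0.064) and heph by 0.24 (SE 0.044), while the serine-arginine proteins SF2 and SC35 fell by 0.22 and 0.24. Of 33 elongation factors 5 were higher and 4 lower, with lilli, a scaffold of the super elongation complex, at 0.41 (SE 0.071), CycT at 0.37 (SE 0.046), Su(Tpl) at 0.22 (SE 0.046) and NELF-B, of the pausing complex, falling by 0.18. Of 23 factors for 3′ end formation and termination 2 were higher and 2 lower. Pcf11, a termination factor, rose by 0.17 (SE 0.044), Fip1 by 0.16 (SE 0.047), and Cpsf5 fell by 0.15.

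The strongest fall of the comparison was of a noncoding RNA. RNaseMRP:RNA, the RNA component of the enzyme that cuts ribosomal precursor RNA, at chr3R:23730048-23730429 on the minus strand, had 79.3, 76.9 and 86.7 CPM in recovery, against 242, 257 and 237 CPM in stress and 1.07, 1.02 and 0.759 CPM in control (log2 fold change -1.60, SE 0.048, adjusted p 7.16e-28). The recovery libraries lay below every stress library and far above the control libraries, where it was nearly absent. It is transcribed by RNA polymerase III and has no regular poly(A) tail, so its count in poly(A) libraries reads both its amount and its capture. It lies opposite CG10365, whose own log2 fold change was 0.49. RNaseP:RNA, its relative, had -0.17 (adjusted p 0.446).

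Among 144 long noncoding RNAs 27 were higher and 15 lower, and among 156 antisense RNAs 22 were higher and 5 lower, both near the background. lncRNA:CR44587 had 118 counts in recovery and 3 in stress, a ratio of 36.4 (95% interval of counting error 12.2 to 179). lncRNA:CR44178 rose by 4.73 (SE 0.80) and asRNA:CR45951 by 4.29 (SE 0.58), each against a host gene on the other strand (RhoGAP93B and park) with log2 fold changes of 0.024. lncRNA:CR42862, the most abundant named, had 2232, 2314 and 2264 CPM in recovery, against 2099, 1869 and 1981 CPM in stress (log2 fold change 0.20 (SE 0.036)). lncRNA:CR45362 fell by 1.18 at 1.19, 0.756 and 1.24 CPM in recovery, against 2.86, 2.41 and 1.96 CPM in stress. Of 18 small nuclear and nucleolar RNAs 2 were higher, snoRNA:Psi28S-291 by 1.41 (SE 0.31), which lies in RpL3 on the same strand, and snRNA:U2:34ABa by 0.32 (SE 0.095).

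Few cuticle genes could be tested, and most of those rose, at low levels. Of 122 listed cuticle protein genes, which build the exoskeleton, 10 were tested, with 7 higher and 0 lower. Over all tested genes 18.2% were higher, and 25.5% of those with a mean under 10 CPM. Genes near 0 in stress passed the count filter through their recovery counts, so the filter itself favours rises in such a list. Cpr64Aa had 162 counts in recovery and 2 in stress, a ratio of 74.9 (95% interval of counting error 20.4 to 624), Cpr64Ab 61 and 2 counts, a ratio of 28.2 (7.48 to 238), and TwdlV 56 counts in recovery and 1 in stress, a ratio of 51.8 (8.92 to 2080). Cpr64Ac had 5.23, 5.42 and 5.5 CPM in recovery, against 0.409, 0.253 and 0.603 CPM in stress (log2 fold change 3.65 (SE 0.48)). Of 21 taste, smell and ionotropic receptor genes 5 were higher (23.8%, against 18.2% of all tested genes), all at least 2-fold, and 2 lower, Gr93b rising by 3.79 (SE 0.72) and Ir76a falling by 0.24.

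Markers of neurons moved unequally. Of 7 tested, 4 were higher and 0 lower, where 18.2% of all tested genes were higher and 25.5% of those with a mean under 10 CPM. Their summed level with the untested ones was 80.7 to 86.7 CPM in recovery, 44.8 to 54.6 CPM in stress and 40.5 to 44.4 CPM in control. Syn, Rdl and the muscle gene Mhc had 9, 8 and 10 counts over the stress libraries and 242, 271 and 51 in recovery. They passed the count filter through recovery, which favours rises in such lists. The synapsin gene Syn had 9.86, 11 and 9.89 CPM in recovery, against 0.545, 0.253 and 0.452 CPM in stress (log2 fold change 4.58 (SE 0.47)), the sodium channel gene para rose by 0.64 (SE 0.16) and futsch, a microtubule-associated protein, by 0.61 (SE 0.11). The defining pan-neuronal gene elav had 21.9, 17 and 22.9 CPM in recovery, against 23.7, 18.6 and 19.6 CPM in stress (log2 fold change -0.0036 (adjusted p 0.987)), with overlapping groups, so the list did not move as a whole. For muscle, 2 of 4 tested markers were higher, with the myosin gene Mhc at 2.5, 1.89 and 2.06 CPM in recovery, against 0.409, 0.38 and 0.603 CPM in stress (log2 fold change 2.20 (SE 0.48)). Of 9 germ line markers 1 was higher, orb, at 1.81 (SE 0.29). None of 10 gut markers had enough counts to test, with summed levels of 2.06 to 2.90 CPM in recovery, 0.603 to 1.01 CPM in stress and 0.127 to 0.153 CPM in control, and 0 of 2 tested fat body markers passed the test. Whether other cells took part in these rises was not tested.

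The blood-cell-like markers were 7 higher and 2 lower of 12, summing to 7085 to 7157 CPM in recovery, 6475 to 6823 CPM in stress and 7416 to 7734 CPM in control. Matrix genes led them. Tig, a ligand of integrins, had 1332, 1359 and 1366 CPM in recovery, against 812, 785 and 858 CPM in stress and 761, 788 and 798 CPM in control (log2 fold change 0.73, SE 0.034, adjusted p 4.76e-21), and the collagen IV genes vkg and Col4a1 rose by 0.55 (SE 0.10) and 0.40 (SE 0.075), both remaining under their control level in the means. Pxn fell by 0.094 and the scavenger receptor Sr-CI by 0.16. In the actin and adhesion list 13 of 37 were higher (35.1%, against 18.2% of all tested genes) and 2 lower. Scaling by total library size made it 8 higher and 9 lower, with a median of -0.025 in place of 0.052. Non-muscle myosin zip had 1059.6, 1113 and 1081 CPM in recovery, against 782, 735 and 756 CPM in stress and 1071, 1078 and 1089 CPM in control (log2 fold change 0.52 (SE 0.033)). The cofilin gene tsr fell by 0.084.

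Falls other than that of RNaseMRP:RNA were shallow. Next to RNaseMRP:RNA, the lowest genes of at least 10 CPM were CG14921 (log2 fold change -0.72), CG9902 (-0.68), CG9286 (-0.64) and Ets96B (-0.64), an ETS-domain factor gene. They were followed by lncRNA:CR44206, lncRNA:CR44779, CG12344, myo, CG5292, CG11634 and CG7914, between -0.60 and -0.55. Among transcripts averaging at least 50 CPM, myo, a TGF-beta family ligand, had 49.6, 50.5 and 48.5 CPM in recovery, against 82, 71.2 and 68.2 CPM in stress and 158, 155 and 148 CPM in control (log2 fold change -0.58, SE 0.064, adjusted p 8.76e-10). CG6700 had 92.7, 95.3 and 87.8 CPM in recovery, against 147, 119 and 119 CPM in stress (log2 fold change -0.48 (SE 0.061)), and the semaphorin receptor gene PlexA had 71.4, 74.2 and 73.1 CPM in recovery, against 112, 86.5 and 84 CPM in stress and 148, 157 and 168 CPM in control (log2 fold change -0.37 (SE 0.07)).

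The receptor gene N (Notch) had 98.5, 97.9 and 97.6 CPM in recovery, against 126, 125 and 121 CPM in stress and 291, 313 and 315 CPM in control (log2 fold change -0.34, SE 0.048, adjusted p 3.34e-07), so its recovery level lay at a fraction of the control level. The homeobox gene ap had 76.3, 84.7 and 85.2 CPM in recovery, against 113, 95.9 and 105 CPM in stress (log2 fold change -0.35 (SE 0.057)). In each of N, ap, PlexA and myo the stress libraries lay below control. That their recovery libraries lay below the stress libraries without overlap was a condition for naming these genes. The others among the 12 lowest were asRNA:CR46029, CG11360, hpRNA:CR33940, hob, CG13690 and the snoRNA host gene Uhg4, with log2 fold changes between -0.51 and -0.33. Uhg4 and lncRNA:CR44206 had their lowest level in control, 24.1, 27.9 and 23.2 CPM and 2.6, 2.29 and 2.66 CPM.

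Many of the smaller changes depended on the test or on a library. DESeq2 did not call mrj, Gcn2, Zip89B, Sod2, Corp, mre11, Uvrag, Rpn11, Prosbeta1, Rpt6, Ufd4, REG, mRpL39, Rpb10, NELF-B, Fip1 or Cpsf5. Nor did it call ValRS-m, AsnRS-m, Pgk, Gapdh1, Tor, S1P, Cdk1, Myt1, RfC3, His4r, lncRNA:CR45362, snRNA:U2:34ABa, Ir76a, srp or Sr-CI. Most of these, and DNApol-alpha60, Pxn, RnrS, Rpn5, eEF1alpha1, eIF6, mRpS21 and tsr, missed the threshold when 1 library was left out, as 29 of the 279 named genes did without recovery replicate 2. Lower counts of other lists varied likewise. Aminoacyl-tRNA synthetase genes had 0 lower by DESeq2 and 20 with total library size, ribosome biogenesis genes 4 and 18, translation factors 1 and 22, core RNA polymerase genes 1 and 9, elongation factors 1 and 15, replication genes 1 and 20 and cell cycle genes 2 and 16. With total library size the JNK list had 5 of 16 higher in place of 8, and Fip1, Pcf11, RnrS, RpL22, eEF1alpha1, mRpL39 and srp were not called higher.

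The same step in the RNAi sets, which used other cultures, was smaller for the genes that rose most in WT. Those genes were chosen for their change in WT, which favours a larger change there, so their values in the other sets are given as a description. In Mock RNAi cells 812 of 8707 tested genes (9.33%) were called between recovery and stress, 437 higher and 375 lower, and in Rin RNAi cells 2652 (30.5%), 1239 higher and 1413 lower, by edgeR's quasi-likelihood test. The biological coefficient of variation was 6.49% in the RNAi fit, against 2.85% in the WT fit. The power to call a change was therefore unequal, and counts of calls do not compare the size of the response between sets. The Mock count was 2396 without Mock stress replicate 2 and 233 to 497 without any 1 of the other Mock libraries. The Rin count was 1427 without Rin recovery replicate 1 and 1751 without Rin stress replicate 3. Scaled by total library size, 271 genes were higher and 1168 lower in Mock, and 592 higher and 2565 lower in Rin. Of the 382 genes at least 2-fold higher in WT that were tested there, 91 were called higher and 0 lower in Mock, with a median log2 fold change of 0.34, and 120 higher and 5 lower in Rin, with a median of 0.30, against 1.95 in WT over all 461. The 91 and 120 genes made up 23.8% and 31.4% of the 382. Of the 677 genes lower in WT, 69 were called lower (10.2%) and 27 higher (3.99%) in Mock, and 151 lower (22.3%) and 131 higher (19.4%) in Rin. Over all genes tested in both, 5.31% were higher and 4.63% lower in Mock, and 15.1% higher and 17.5% lower in Rin. The Rin shares of the 677 genes lay near those over all genes, in both directions. Across the 7985 genes tested in both, which are not independent replicates, the log2 fold changes of WT and Mock had a Pearson r of 0.44 and a Spearman rho of 0.073, and those of WT and Rin 0.32 and -0.0058.

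The difference between the sets was tested directly in a fit of 27 libraries. The log2 fold change differed between WT and Mock for 1617 of 8902 genes (18.2%) and between WT and Rin for 2889 (32.5%). The count against Mock was 2887 without Mock stress replicate 2, 871 without Mock stress replicate 1, 991 without Mock stress replicate 3, 986 without Mock recovery replicate 1 and 952 without WT stress replicate 2. The 12 highest genes and the 12 highest abundant genes of WT all had a larger change in WT than in either set, an outcome that the choice of genes by their WT values favours. For Hsp68 the log2 fold change was 1.41 (SE 0.12, adjusted p 3.09e-07) in Mock and 1.30 (SE 0.12, adjusted p 6.46e-07) in Rin, and the difference of WT from them was 1.26 (SE 0.14, adjusted p 2.7e-07) and 1.36 (SE 0.14, adjusted p 5.81e-08). For stv it was 0.83 in Mock and 0.80 in Rin, with differences of 2.55 (SE 0.17, adjusted p 4.99e-12) and 2.57 (SE 0.17, adjusted p 2.93e-12). Hsp83, higher in WT, had 0.12 (SE 0.06, adjusted p 0.205) in Mock and 0.046 (SE 0.06, adjusted p 0.59) in Rin.

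Other genes also differed between the sets by that test. Rev1 differed by 2.24 (SE 0.12, adjusted p 1.66e-13) from Mock and 2.24 (SE 0.12, adjusted p 1.1e-13) from Rin, and kay by 0.91 (SE 0.092, adjusted p 2.74e-08) and 0.94 (SE 0.092, adjusted p 1.52e-08). RNaseMRP:RNA, which fell by 1.60 in WT, had -0.13 (SE 0.19, adjusted p 0.698) in Mock and 0.035 (SE 0.19, adjusted p 0.909) in Rin, with differences of -1.53 (SE 0.22, adjusted p 1e-05) and -1.69 (SE 0.22, adjusted p 1.55e-06). Of the 12 lowest genes 5 differed from Mock and 6 from Rin, and of the 12 lowest abundant genes 3 and 5. Cytosolic ribosomal protein genes were called higher for 38 of 88 in Mock and 83 of 88 in Rin under TMM scaling, with 0 lower in either, beside the 7 higher and 7 lower in WT. The sets differ in RNAi treatment and in culture, which cannot be told apart.

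**Figure D5:**
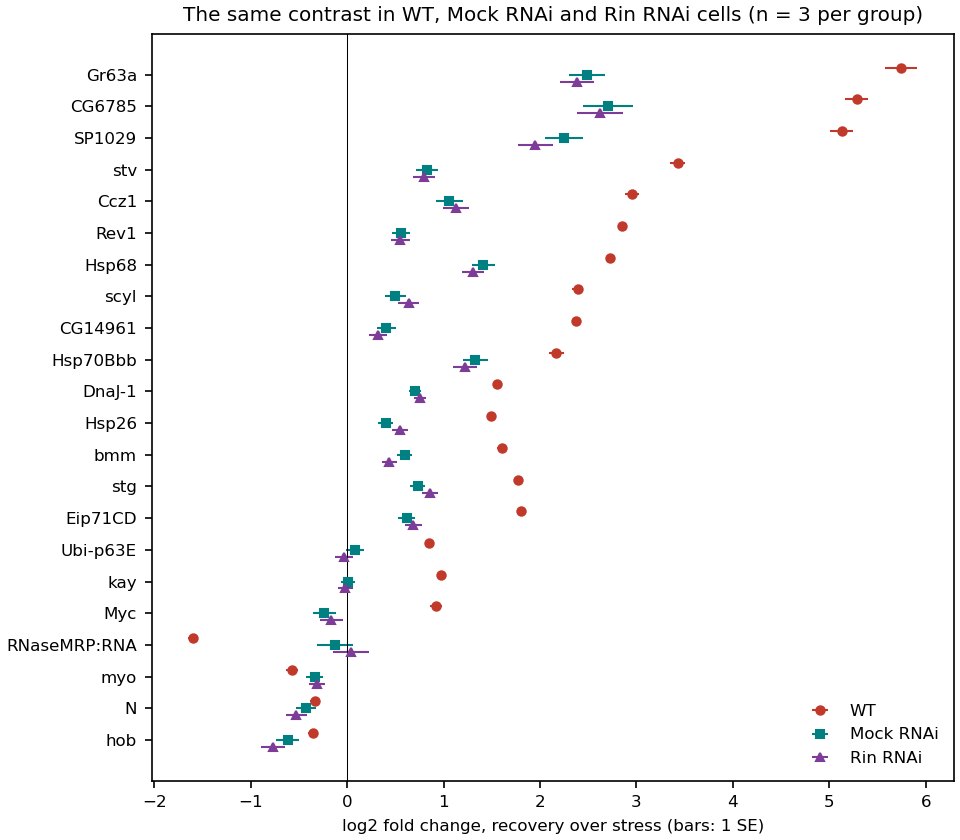
Log2 fold change of recovery over stress (horizontal axis, bars 1 SE) of 22 genes chosen with their WT values known, in WT, Mock RNAi and Rin RNAi cells, 3 libraries a group. WT points of the rising genes lie to the right of both RNAi sets, as for stv at 3.43, against 0.83 in Mock and 0.80 in Rin, while myo and N lie left of 0 in all 3 sets.

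The authors' deposited table of this comparison held 10348 rows and called 1559 genes, 1272 higher and 287 lower. Of 8119 genes tested in both, 1422 were called in both, 0 of them with opposite sign, 730 here only and 2 in the authors' deposited table only. For Gr63a the authors' deposited table gave a log2 fold change of 5.74 with an SE of 0.176, and for RNaseMRP:RNA -1.61 with an SE of 0.064.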

How the data were processed

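Poly(A) RNA of S2R+ cells was read in 50-base single-end reads from a TruSeq kit that does not mark strand, per the labels. STAR 2.5.3, HTSeq, DESeq2 and the dm6 build are named in the submitters' processing notes. The deposited files give raw counts per gene symbol for each library. The authors' deposited comparison table gives log2 fold changes, p-values and a mean signal per gene (the baseMean column, per the file headers).

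From the counts, edgeR 4.0.16 in R 4.3.3 (TMM, filterByExpr, quasi-likelihood test, adjusted p under 0.05) was fitted to the 9 WT libraries, to 18 RNAi libraries and, for differences, to all 27. Reads of no gene (8.05% to 8.98% in the WT libraries) or of several (1.29% to 1.39%) were left out of library sizes. Alternatives included DESeq2 1.42.0. The procedure was also run on simulated counts, and no result of that run is used here. Positions came from the Ensembl annotation BDGP6.54, which held 8096 of the 8123 tested symbols (99.67%).

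Named genes took in the 12 top and 12 bottom log2 fold changes of called genes with at least 10 CPM in recovery or stress and groups that did not overlap, the same among those averaging 50 CPM and, whether called or not, members of lists. All tested members of a list of up to 15 could be named, otherwise the 4 highest, 4 lowest and 2 most abundant; the 5 highest and 5 lowest differences between sets were added. The comparison and lists were chosen with earlier results of these data known. Intervals on counts cover counting error only. The Click-iT libraries were not used here.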

Additional observations from a re-analysis of the deposited data

Results flagged for a closer look

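The change between recovery and stress differed between WT and Mock RNAi cells for 1617 genes, and between WT and Rin RNAi cells for 2889 genes, by the edgeR test of the difference itself. The count against Mock was 871 to 2887 with 1 library left out, the highest without Mock stress replicate 2.

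Against Mock, the differences in log2 fold change (WT minus Mock) were largest in the positive direction for CG15005 at 6.69 (adjusted p 0.0185), CG1632 at 4.53, CG31445 at 4.37, dpr4 at 4.34 and CG7829 at 4.26. In the negative direction they were -1.53 for RNaseMRP:RNA, -0.95 for CG9286, -0.90 for CG14921, -0.88 for Trs20 and -0.87 for mRpS21. The value of CG15005 rests on a WT stress group with 0 counts and is no bound.

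Against Rin (WT minus Rin), the positive differences were 7.52 for CG15005 (adjusted p 0.00358), 5.01 for dpr4, 4.57 for CG31445, 4.47 for Rdl and 4.45 for CG7829. The negative ones were -1.69 for RNaseMRP:RNA, -1.46 for lncRNA:CR34335, -1.43 for scaRNA:PsiU5-44, -1.20 for CG13339 and -1.13 for lncRNA:CR40469. CG7829 had 9.98, 12 and 10.3 CPM in recovery, against 0.409, 0.253 and 0.754 CPM in stress in WT, beside log2 fold changes of 0.20 (SE 0.33, adjusted p 0.738) in Mock and 0.011 (SE 0.31, adjusted p 0.983) in Rin. lncRNA:CR34335, by contrast, had 1.07 (SE 0.21, adjusted p 0.00116) in Rin and -0.34 in WT.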

How the results depend on the processing

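Beside the 2152 calls in WT there were 2134 with RLE factors, 2136 with the 6 libraries alone, 1514 of 6298 genes at a mean of at least 10 CPM and 2575 of 13531 without a filter. With total library size 3346 genes were called, 2162 of them lower. DESeq2, run without the count filter, called 1433, 255 of them lower. Among called genes, 463 also changed by 1 or more on the log2 scale, 461 higher and 2 lower. In Mock this held for 48 (44 higher, 4 lower), in Rin for 70 (63 and 7), for the difference from Mock in 359 (348 and 11) and from Rin in 427 (405 and 22). With total library size Mock had 1439 calls (271 higher, 1168 lower) and Rin 592 higher and 2565 lower, while the differences had 458 negative calls from Mock and 866 from Rin. Without a filter Mock had 1274 calls, 681 of them lower, and the difference from Rin 931 negative calls. DESeq2 gave 329 negative calls for the difference from Mock and 911 for that from Rin. Leaving out 1 library gave 1718 to 2299 calls in WT (1301 to 1555 higher, 417 to 744 lower), 233 to 2396 in Mock (160 to 1175, 73 to 1221), 1427 to 2433 in Rin (700.0 to 1108, 727 to 1325), 871 to 2887 for the difference from Mock (702 to 1753, 169 to 1134) and 1965 to 3000.0 from Rin (1285 to 1905, 680.0 to 1355). The replicate number as a block gave 2045 calls in WT (1427 higher, 618 lower), 811 in Mock, 2638 in Rin and 1636 and 2925 for the differences. Deviations of same-numbered recovery and stress libraries correlated at -0.11, -0.044 and 0.021, so no pairing by number was seen. With 3 libraries a group these values cannot exclude one. Of 279 named genes, 237 kept their call under DESeq2, 273 under the block, 261 under total library size and 250 to 279 with 1 library left out. eEF2, not called, reversed to -0.065 under total library size (adjusted p 0.0389), where the median gene's log2 fold change is lower by 0.076. The cause of the other shifts was not tested. Genes of low count have the widest errors, with a median SE of 0.26 under 10 CPM, against 0.031 at 1000 CPM and above.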

Other observations

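Chromosome 4, the small heterochromatic autosome, was singled out after its values were seen. Of 80 tested genes there, 3 (3.75%) were higher in recovery and 17 (21.2%) lower, with a median log2 fold change of -0.071. On the X, 2L, 2R, 3L and 3R the shares higher were 16.5% to 19.4% and the shares lower 6.47% to 9.69%. The genes myo, CG11360, PlexA and ATPsynbeta, all lower in recovery, lie on chromosome 4. No test was made of this difference.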
